A study of Mus musculus with 6 samples.

Results

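The direct pathway markers of the striatum are described here as 7 genes of the 46078 in the deposited table, namely Drd1, Tac1, Pdyn, Chrm4, Eya1, Sfxn1 and Slc35d3. They were chosen by name, as genes known to be enriched in medium spiny neurons (MSNs) of the D1 type, and each was found in the table by its Ensembl identifier. RNA was sequenced from the whole striatum of 3 transgenic (Shank3 TG) and 3 wild-type (WT) C57BL/6J mice at 12 weeks of age, with 1 library per mouse, called TG1, TG2, TG3, WT1, WT2 and WT3 after the replicate numbers of the labels. The TG mice carry an EGFP-Shank3 transgene and overexpress Shank3, and according to the methods all 6 mice were male. The promoter of the transgene is not given in the sources used here, and the table has a single row for Shank3, so transcripts of the transgene and of the endogenous gene cannot be told apart. The tissue holds all cell types of the striatum, so fewer D1-type MSNs and less RNA of these genes per MSN cannot be told apart either.

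Most neurons of the striatum are MSNs, inhibitory projection neurons that belong to the direct or the indirect pathway. Direct pathway MSNs project to the substantia nigra and the internal pallidum, express the dopamine receptor D1, which raises cyclic AMP through the G protein subunit encoded by Gnal, and make the peptides substance P and dynorphin. Indirect pathway MSNs project to the external pallidum, express the dopamine receptor D2 and the adenosine receptor A2a, and make enkephalin. Activity of the direct pathway is linked to the start of movement and to reward, and that of the indirect pathway to the suppression of movement.

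The members are spread over 5 chromosomes (GRCm38 coordinates of GENCODE M21). Drd1 (ENSMUSG00000021478) lies at chr13:54051183-54055705 on the minus strand, and Sfxn1 (ENSMUSG00000021474) at chr13:54071869-54108342 on the plus strand. These neighbours are transcribed away from each other from start sites 16164 bases apart, with 0 annotated genes between them. Pdyn (ENSMUSG00000027400) lies at chr2:129686565-129699844 on the minus strand and Chrm4 (ENSMUSG00000040495) at chr2:91927249-91928688 on the plus strand. Tac1 (ENSMUSG00000061762) lies at chr6:7554879-7565834 on the plus strand, Eya1 (ENSMUSG00000025932) at chr1:14168954-14310235 on the minus strand and Slc35d3 (ENSMUSG00000050473) at chr10:19847916-19851459 on the minus strand. The exons of the 7 genes shared 0 bases with exons of other annotated genes.

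The 250 bases before the start site are printed for 5 members. Drd1 and its neighbour Sfxn1 were taken as those that varied most and least among the libraries. Chrm4 with Drd1 and Tac1 with Pdyn were the pairs with the highest correlations, though no pair passed the adjusted permutation test. The sequences are RefSeq promoter sequences of GRCm38.p6, written 5′ to 3′ on the strand of the gene. Capitals mark the GC box GGGCGG, the CCAAT box CCAAT and TGACG, the core of the cyclic AMP response element, each on either strand. The full element TGACGTCA, the AP-1 site TGACTCA and the TATA box TATAAA were searched too.
Drd1, the upstream of its RefSeq starts, chr13:54055659-54055908, minus strand: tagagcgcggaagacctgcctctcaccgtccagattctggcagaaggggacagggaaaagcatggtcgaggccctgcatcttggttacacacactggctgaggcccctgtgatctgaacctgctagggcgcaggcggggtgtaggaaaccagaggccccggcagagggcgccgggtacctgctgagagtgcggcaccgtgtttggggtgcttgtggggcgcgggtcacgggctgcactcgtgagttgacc
Sfxn1, chr13:54071595-54071844, plus strand: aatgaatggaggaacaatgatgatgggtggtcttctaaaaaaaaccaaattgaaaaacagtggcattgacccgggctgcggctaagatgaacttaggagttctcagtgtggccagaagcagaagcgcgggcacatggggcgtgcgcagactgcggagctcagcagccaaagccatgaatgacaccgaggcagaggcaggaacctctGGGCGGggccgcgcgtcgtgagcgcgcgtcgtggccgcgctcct
Chrm4, chr2:91921939-91922188, plus strand: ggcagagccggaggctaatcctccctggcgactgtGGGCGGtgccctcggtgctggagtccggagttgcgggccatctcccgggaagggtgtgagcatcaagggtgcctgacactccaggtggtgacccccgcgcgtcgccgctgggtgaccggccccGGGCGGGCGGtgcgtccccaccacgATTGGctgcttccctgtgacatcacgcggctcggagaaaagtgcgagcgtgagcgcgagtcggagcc
Tac1, chr6:7554811-7555060, plus strand: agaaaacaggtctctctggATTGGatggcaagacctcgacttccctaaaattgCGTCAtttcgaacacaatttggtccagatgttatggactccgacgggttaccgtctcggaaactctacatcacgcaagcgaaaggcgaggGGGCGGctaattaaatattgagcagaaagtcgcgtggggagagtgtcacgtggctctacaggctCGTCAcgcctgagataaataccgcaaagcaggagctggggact
Pdyn, the upstream of its RefSeq starts, chr2:129699939-129700188, minus strand: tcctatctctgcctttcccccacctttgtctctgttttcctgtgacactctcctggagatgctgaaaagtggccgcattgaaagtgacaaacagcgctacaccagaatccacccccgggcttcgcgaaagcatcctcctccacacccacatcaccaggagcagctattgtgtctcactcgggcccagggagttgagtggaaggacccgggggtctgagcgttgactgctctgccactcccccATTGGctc

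A RefSeq promoter was matched for 6 members, and Drd1 and Pdyn had an additional start, which gave 8 windows. The core TGACG was found in 2 of the 8 windows and in 17.8% of the 32851 mouse promoters searched. In Tac1 it lay 197 and 43 bases before the start site, and in Slc35d3, whose window is not printed, 149 bases before it. The full element TGACGTCA was in 0 of the 8 windows and in 1.55% of all promoters, and the AP-1 site TGACTCA and the TATA box were in 0 of the 8 windows and in 4.46% and 12.4% of all promoters. The GC box was in 5 of the 8 windows and in 32.7% of all promoters, and the CCAAT box in 5 and in 33.8%. The printed window of Drd1 held none of the letters searched, and that of Sfxn1 held 1 GC box, 44 bases before the start site. These matches describe the letters of the windows and say nothing of which factors bind there.

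Shank3 was the check of the labels. Values are normalized read counts, the reads of a gene divided by a size factor of the library, and log2 fold changes are differences of mean log2(value + 1). Shank3 stood at 29891, 28309 and 26044 in TG1, TG2 and TG3 and at 13807, 12918 and 13865 in WT1, WT2 and WT3. Its log2 fold change (TG minus WT) was 1.05 (SE 0.06), with an adjusted P value of 7.04e-05 in limma's test, and it was the 1 gene called among the 17605 tested. The libraries held between 27689589 and 36647626 counts. The markers that all MSNs share were abundant in every library, among them Ppp1r1b, which encodes DARPP-32, at 21063 to 28763 normalized read counts. Markers of cortical excitatory neurons were found as well, with Slc17a7, the vesicular glutamate transporter VGLUT1, at 20237 to 29848. Choroid plexus markers set TG1 apart, since Ttr, the transthyretin of the choroid plexus, stood at 13701 in TG1, at 1122 and 204 in TG2 and TG3 and at 120 to 432 in the WT libraries. Of the 10 choroid plexus markers 9 passed the filter. The values of the whole list summed to 15549 in TG1, 2002 in TG2 and 641 in TG3. In WT they summed to 561 to 906, so TG2 also lay above every WT library. The 8 cortical markers summed to 36601 to 49474 in TG and to 41020.2 to 46551 in WT, and their part in the values of the members was not tested. TG1 was also the library with the lowest value of all 14 shared MSN markers. Results that rest on TG1 are therefore given with and without it.

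All 7 members passed the filter on low values. None was called between Shank3 TG and WT striatum in limma's test at an adjusted P value of 0.05, where 0.00568% of all genes tested were called. An unadjusted P value below 0.05 was reached by 1 of the 7, Slc35d3, against 4.31% of all genes tested and 2.33% of them in the direction of lower values in TG. The TG and WT values overlapped for each of the 7 members, while they did not overlap for 10.1% of the genes tested (5.05% with all TG values below all WT values). The log2 fold change was below 0 for 5 members and above 0 for 2, and 50.8% of all genes tested were below 0. The median of the 7 log2 fold changes was -0.13, beside 0.00 for all genes tested. Count tests on the recovered reads called 0 members. Over all genes tested, edgeR's quasi-likelihood test called 1 gene (0.00568%), limma-voom 1 (0.00568%), DESeq2 7 (0.0398%) and DESeq2 with a prior and an empirical null 15 (0.0852%).

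Drd1 encodes the D1 receptor itself. It stood at 4237, 6615 and 5465 normalized read counts in TG1, TG2 and TG3 and at 5571, 5779 and 6405 in WT1, WT2 and WT3. Both the lowest and the highest of the 6 values were those of TG mice, and the WT values lay between them. The means were 5438.8 ± 1189 (SD, n = 3) in TG and 5918 ± 434 (SD, n = 3) in WT. Its log2 fold change was -0.14 (SE 0.13, 95% interval -0.43 to 0.14), with an adjusted P value of 0.971 in limma's test. In the exact permutation test (two-sided, as are all tests here) P was 0.6, and the smallest P that 3 against 3 mice can give is 0.1. Without TG1 the log2 fold change was 0.03, so the sign turned on that library.

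Chrm4 encodes the muscarinic receptor M4, which lowers cyclic AMP and so opposes the D1 receptor in the same neurons. It was measured at 1465, 1862 and 1765 normalized read counts in the TG libraries and at 1613, 1811 and 2144 in the WT libraries, each in the order of the replicate numbers. TG1 was again the lowest library, and WT3 was the highest. The log2 fold change was -0.13 (SE 0.11, 95% interval -0.37 to 0.11; adjusted P value of limma 0.971, exact permutation P = 0.5), and without TG1 it was -0.02. The annotation models Chrm4 as 1 exon of 1440 bases, and the RefSeq start lies upstream of that exon.

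**Figure D1:**
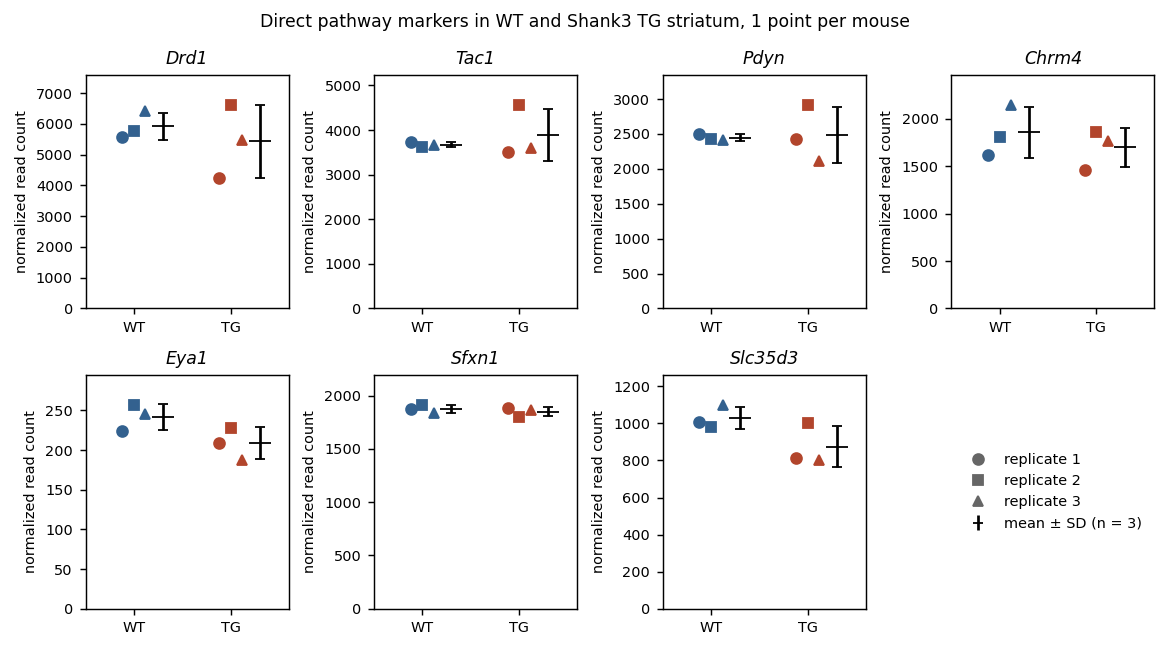
Normalized read counts of the 7 direct pathway markers in each of the 3 Shank3 TG and 3 WT libraries, 1 panel per gene with a y axis that starts at 0. Each point is 1 mouse (its shape gives the replicate number), and the crosses with error bars are means ± SD (n = 3). Drd1 ranged from 4237 to 6615 within the TG mice alone, and Sfxn1 stayed between 1799 and 1908 in all 6 mice.

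Tac1 encodes the precursor of substance P and neurokinin A. TG1, TG2 and TG3 held 3513, 4561 and 3601 normalized read counts of it, and WT1, WT2 and WT3 held 3726, 3621 and 3659. TG2 stood above the other 5 libraries, which lay close together, and the SD was 581 in TG against 53.3 in WT (n = 3 each). The log2 fold change was 0.07 (SE 0.09, 95% interval -0.11 to 0.26; adjusted P value of limma 0.971), and without TG2 it was -0.04.

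Pdyn encodes prodynorphin, the precursor of the dynorphins, which act on the kappa opioid receptor. It stood at 2427, 2914 and 2116 in the TG libraries and at 2505, 2429 and 2411 in the WT libraries. As for Tac1, TG2 was the highest library, and here TG3 was the lowest. The SD was 402 in TG (n = 3), more than the distance between the lowest and highest WT values,, and the log2 fold change was 0.01 (SE 0.09, 95% interval -0.20 to 0.22; adjusted P value of limma 0.995). Without TG2 it was -0.11.

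Slc35d3 encodes a protein of the nucleotide sugar transporter family that has been linked to the trafficking of the D1 receptor to the cell surface. The TG libraries held 813, 1001 and 805 normalized read counts of it and the WT libraries 1006, 982 and 1098. TG1 and TG3 lay below all WT libraries, and TG2 lay between WT2 and WT1. The means were 873 ± 111 and 1029 ± 61.0 (SD, n = 3 each). The log2 fold change was -0.24 (SE 0.09), which corresponds to -15.4% with a 95% interval from -26.0% to -3.3%, with an unadjusted P value of 0.0190 in limma's fit and an adjusted P value of 0.971, and the exact permutation test gave P = 0.2. Without TG1 the log2 fold change was -0.19.

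Eya1 encodes a transcriptional coactivator and phosphatase that works with homeobox partners. It was the least abundant member, at 209, 228 and 188 normalized read counts in the TG libraries and 224, 256 and 245 in the WT libraries. TG1 and TG3 lay below all WT libraries here too, and TG2 lay just above WT1. The log2 fold change was -0.22 (SE 0.11, 95% interval -0.45 to 0.02; adjusted P value of limma 0.971, exact permutation P = 0.2) and -0.22 without TG1.

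Sfxn1 encodes sideroflexin 1, a serine transporter of mitochondria. It stood at 1883, 1799 and 1867 in the TG libraries and at 1872, 1908 and 1833 in the WT libraries. No library stood apart. The log2 fold change was -0.02 (SE 0.05), and its 95% interval, -0.12 to 0.09, was the narrowest of the 7 (adjusted P value of limma 0.988).

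**Figure D2:**
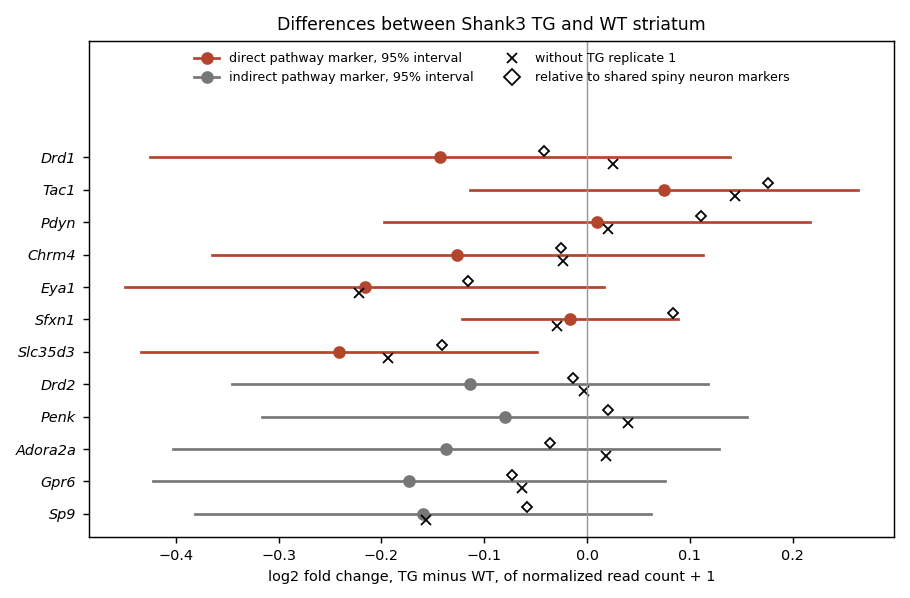
Log2 fold changes (TG minus WT) of the direct pathway markers and 5 indirect pathway markers (dots), with the 95% intervals of the limma fit as horizontal bars, the value without TG1 as a cross and the value relative to the shared MSN markers as a diamond. Among the 7 members only the interval of Slc35d3, -0.43 to -0.05, leaves out 0, and its adjusted P value was 0.971. The intervals borrow spread from other genes.

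Per kilobase of exon, the order of the members was Drd1, Chrm4, Tac1, Pdyn, Slc35d3, Sfxn1 and Eya1. The length counted was that of all annotated exons of a gene together. It can differ from the length of the expressed transcripts, so levels of different genes are compared only roughly. The mean levels over the 6 libraries were 1565 normalized read counts per kilobase for Drd1, 1234 for Chrm4, 1112 for Tac1 and 855 for Pdyn. They were 362 for Slc35d3, 189 for Sfxn1 and 28.8 for Eya1. The value of Chrm4 rests on the short exon model named above. By the same measure Drd2, the D2 receptor, stood at 1515, close to Drd1, whereas Penk, the enkephalin precursor, stood at 14760, above both direct pathway peptides.

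The members differed widely in how much they varied between mice of the same genotype. The SD of the log2 values within genotypes was 0.24 for Drd1, 0.19 for Chrm4, 0.17 for Pdyn, 0.15 for Tac1, 0.14 for Slc35d3, 0.12 for Eya1 and 0.03 for Sfxn1. The median of all genes tested was 0.11, and Drd1 stood at the 79.9th percentile of these SDs and Sfxn1 at the 3.79th. Among the genes with a mean over 500, where counting error adds less to the SD, Drd1 stood at the 98.8th percentile, Chrm4 at the 97.1st, Pdyn at the 94.9th, Tac1 at the 92.4th, Slc35d3 at the 90.8th and Sfxn1 at the 7.26th. Counting error alone gives an SD of 0.019 for Drd1 and 0.033 for Sfxn1 on the log2 scale. The spread of Sfxn1 was thus no larger than its counting error, while that of Drd1 exceeded its own many times over.

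Library by library, Drd1, Chrm4 and Slc35d3 followed the shared MSN markers most closely, with r = 0.98, 0.90 and 0.83 over the 6 libraries. Eya1 (r = 0.55), Tac1 (r = 0.59) and Pdyn (r = 0.43) did so less, and Sfxn1 had the opposite sign (r = -0.66). TG1 and TG3 each held the lowest value of 3 of the 7 members. Of all genes tested, 18.6% were lowest in TG1 and 16.1% in TG3. Relative to the mean over the libraries, the 14 shared MSN markers stood on average at -0.23, 0.14 and -0.06 (log2) in TG1, TG2 and TG3 and at -0.02, 0.01 and 0.16 in WT1, WT2 and WT3. Drd1 stood at -0.41, 0.23 and -0.04 and at -0.01, 0.04 and 0.19. Both were lowest in TG1. The indirect pathway markers stood at -0.27, 0.19 and -0.12 and at 0.00, 0.07 and 0.13. The cortical markers went the other way in TG1, TG2, TG3 and WT3, at 0.13, -0.21, 0.16 and -0.09. In WT1 and WT2 they stood at -0.0008 and 0.01. Tac1 and Pdyn shared the high value of TG2, at 0.28 and 0.25. In TG1 they stood at -0.10 and -0.02, less far below the mean than Drd1. TG1 was still the lowest library for Tac1, and TG3 was the lowest for Pdyn.

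**Figure D3:**
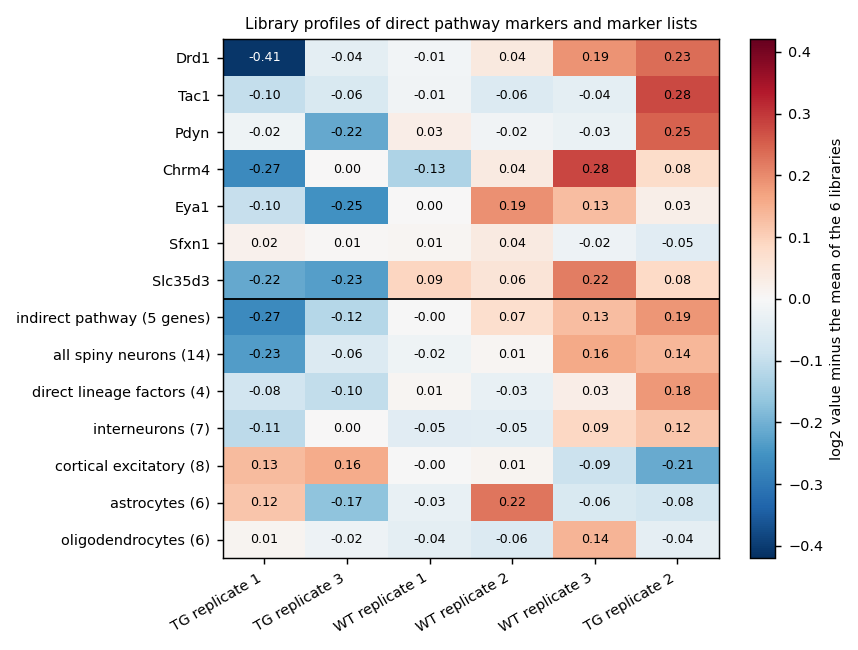
Log2 deviation of each direct pathway marker and of several marker lists from their mean over the 6 libraries, with 1 column per library, ordered by the value of Drd1, and the value written in each cell. Drd1 (-0.41), Chrm4 (-0.27) and the shared MSN markers (-0.23) were all low in TG1, while Sfxn1 stayed between -0.05 and 0.04 in every library.

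Across the 6 mice, 16 of the 21 pairs of members had a positive Pearson correlation of their log2 values. All 15 pairs without Sfxn1 were positive, and 5 of the 6 pairs with Sfxn1 were negative. This split was not part of the planned count. The spread of Sfxn1 was no larger than its counting error, so the signs of its correlations are only a description. After the values were centred on the genotype means, 15 of the 21 were positive. With values scaled to equal shared MSN markers, 8 of the 21 were positive. The share of positive pairs among all genes tested is not given here. No pair passed the exact permutation test after adjustment over the 21 pairs, and the smallest adjusted P value was 0.251. The members share libraries and scaling, so the pairs are not independent of each other.

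The closest pair was that of the receptors Drd1 and Chrm4, with r = 0.86 and rho = 0.89 (exact permutation P = 0.0347 and 0.0333, adjusted P = 0.251 and 0.461). Without TG1 and TG2, the libraries farthest from the median of Drd1, r was 0.91. The peptides Tac1 and Pdyn gave r = 0.83 and rho = 0.71 (exact permutation P = 0.0403 and 0.136, adjusted P = 0.251 and 0.461), and r = 0.75 without TG1 and TG2. With 1 library left out at a time, r of the peptides ran from 0.29, without TG2, to 0.99, so the relation rests largely on TG2. Eya1 and Slc35d3 gave r = 0.83 and rho = 0.60 (exact permutation P = 0.0472 and 0.242, adjusted P = 0.251 and 0.461), and r = 0.95 without TG3 and WT2. Between the receptors and the peptides r was 0.62 for Drd1 and Tac1 (rho = 0.83, exact permutation P = 0.179 and 0.0583, adjusted P = 0.492 and 0.461) and 0.08 without TG1 and TG2. For Drd1 and Pdyn r was 0.40, for Chrm4 and Tac1 0.28 and for Chrm4 and Pdyn 0.09 (exact permutation P = 0.393, 0.486 and 0.896).

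Each member was also set against Drd2, the shared MSN markers, the cortical markers, the choroid plexus markers and the library totals, which gave 35 relations, a family added after the data were seen. Of these, 2 passed the exact permutation test after adjustment over the 35, both with Drd1. Drd1 and Drd2 gave r = 0.96 and rho = 0.94 (exact permutation P = 0.00278 and 0.0167, adjusted P = 0.0486 and 0.146). Drd1 and the shared MSN markers gave r = 0.98 and rho = 0.94, with the same P values. Without TG1 and TG2 the r values were 0.91 and 0.995, so neither rested on those libraries. Drd2 and the shared MSN markers themselves gave r = 0.96, so the 2 relations are not independent of each other. With the rank correlation, or with scaling by library totals, 0 of the 35 relations passed.

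Drd1 ran against the cortical markers. Its r was -0.80 with the cortical markers (rho = -0.89, exact permutation P = 0.0417 and 0.0333, adjusted P = 0.182 and 0.167) and -0.84 without TG1 and TG2. The shared MSN markers and the cortical markers themselves gave r = -0.84. With the choroid plexus markers Drd1 gave r = -0.66 (rho = 0.09, exact permutation P = 0.179), which became 0.80 without TG1. The part of cortical and choroid plexus RNA in these relations was not tested. Sfxn1 had the opposite sign to Drd1, with r = 0.75 against the cortical markers (rho = 0.60, exact permutation P = 0.0806, adjusted P = 0.256).

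**Figure D4:**
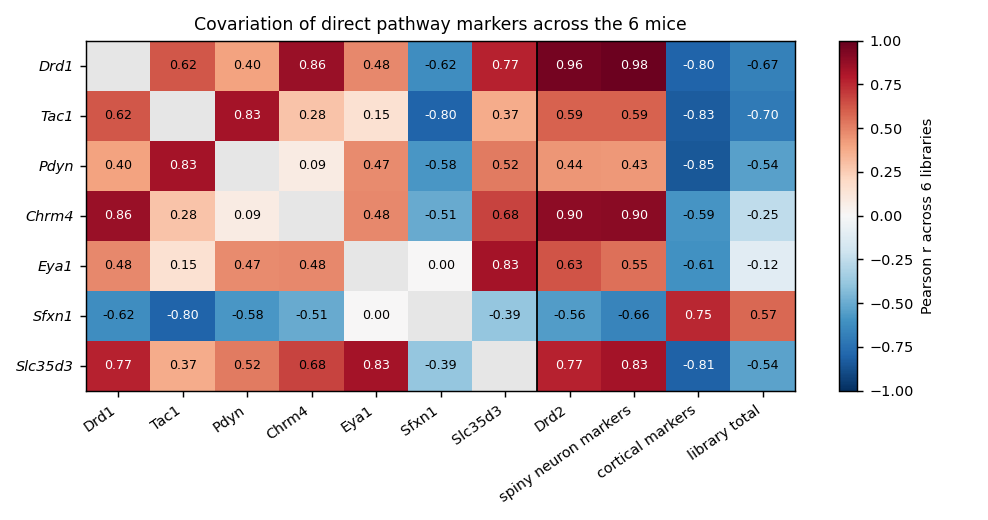
Pearson correlations of log2 values over the 6 libraries between the 7 members (left columns) and between the members and Drd2, the shared MSN markers, the cortical markers and the library totals (right columns), with r written in each cell. Drd1 was closest to the shared MSN markers (0.98) and Drd2 (0.96), and Sfxn1 was negative or near 0 against every other member.

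Relative to the 14 shared MSN markers of the same library, the spread of Drd1 within genotypes went from 0.24 to 0.10, that of Chrm4 from 0.19 to 0.09 and that of Slc35d3 from 0.14 to 0.07. That of Tac1 went from 0.15 to 0.09 and that of Pdyn from 0.17 to 0.16, so 5 members were less spread on this scale. The other two were more spread, with Eya1 going from 0.12 to 0.15 and Sfxn1 from 0.03 to 0.18. On this scale Drd1 differed between TG and WT by -0.04 and Chrm4 by -0.03 (exact permutation P = 0.8 each). Slc35d3 differed by -0.14, and its values did not overlap between the genotypes (exact permutation P = 0.1, the smallest possible), while 5.11% of all genes tested did not overlap on this scale. It was the 1 member of 7 without overlap. Tac1 differed by 0.18 and Pdyn by 0.11 (exact permutation P = 0.2 and 0.4). This scale moved the median log2 fold change of all genes tested from 0.00 to 0.10, so differences on it are read against that value. It also brought the share of genes tested below 0 from 50.8% to 18.9%.

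The balance of the pathways was compared by ratios within each library, which are free of library scaling. The ratio of Drd1 to Drd2 was 1.34, 1.52 and 1.504 in TG1, TG2 and TG3 and 1.55, 1.41 and 1.49 in WT1, WT2 and WT3. These ranges overlapped, and the log2 difference of -0.03 was smaller than the SD of 0.084 within genotypes (exact permutation P = 0.7). Without TG1 it was 0.03, so its sign too turned on that library. Chrm4 in place of Drd1 gave a log2 difference of -0.01 (exact permutation P = 0.9). For the peptides, the ratio of Tac1 to Penk was 0.178, 0.162 and 0.158 in the TG libraries and 0.148, 0.156 and 0.143 in the WT libraries. All TG ratios lay above all WT ratios, though narrowly, with the closest at 0.158 in TG3 and 0.156 in WT2. The group means differed by 0.16 on the log2 scale (SD 0.08 within genotypes), or 0.10 without TG1. The exact permutation test gave P = 0.1, the smallest possible, and 0.8 after adjustment over the 8 ratios computed. The ratio of Pdyn to Penk overlapped between genotypes, with a log2 difference of 0.09 (exact permutation P = 0.7).

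Related genes were counted over lists. Beside the members, limma's test gave an unadjusted P value below 0.05 for 1 of the genes named in the next paragraphs, Pcsk1n, and edgeR, limma-voom and both forms of DESeq2 called 0 of the genes of these lists. Transcription factors of the direct pathway lineage gave 4 genes tested, of which 0 were called. The log2 fold changes were 0.11 for Isl1, which specifies direct pathway neurons, -0.15 for Ebf1, -0.01 for Foxp2 and 0.04 for Zfp521. All 4 overlapped between the genotypes, and their median was 0.02. Of the indirect pathway markers 5 were tested, 0 were called and 5 were below 0, with a median of -0.14. Their log2 fold changes were -0.11 for Drd2, -0.08 for Penk, -0.14 for Adora2a, -0.17 for Gpr6 and -0.16 for Sp9, a transcription factor of that lineage. Without TG1 the median was 0.00, with 3 below 0 and 2 above. Of the shared MSN markers 14 of 14 were below 0, with a median of -0.09, and without TG1 8 were below 0 and 6 above, with a median of -0.01. The members themselves then had 4 below 0, 3 above and a median of -0.02.

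Among the relatives of the 2 receptors, Drd5, the other D1-like receptor, stood at 62.6, 64.1 and 68.2 normalized read counts in the TG libraries and at 53.8, 53.3 and 53.0 in the WT libraries. The groups did not overlap, but counting error is large at this level (SD 0.188 on the log2 scale), and the log2 fold change of 0.28 (SE 0.15) had an adjusted P value of 0.971 in limma's test. Drd3 was measured between 30.4 and 60.8 and had a log2 fold change of 0.04, and Drd4 stayed below the filter at 4.87 to 6.01. The other muscarinic receptors had log2 fold changes of -0.04 for Chrm1, 0.22 for Chrm2, 0.01 for Chrm3 and 0.04 for Chrm5, and 0 of them were called. Per kilobase Chrm4 stood above Chrm1, at 1234 against 798 normalized read counts, which rests on the short exon model of Chrm4.

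The peptide families showed the same lack of calls. Tac2, the neurokinin B precursor, had a log2 fold change of 0.40 (SE 0.25) and Tac4 stayed below the filter, at 0 to 5.61 normalized read counts. Pomc and Pnoc, further opioid precursors, had log2 fold changes of -0.30 (SE 0.24) and 0.34 (SE 0.18). Of the genes that process or receive the peptides 9 were tested and 0 were called, with a median of 0.00. Cpe, which trims the peptides, had a log2 fold change of 0.00, Pcsk2, which cuts the precursors, -0.02, and Pcsk1n, the inhibitor of a related protease, -0.20 (SE 0.07, adjusted P value of limma 0.971). Oprk1, the kappa receptor, had -0.10 and Tacr1, the substance P receptor, -0.04.

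Of the genes that carry the D1 signal inside the cell 17 were tested and 0 were called, with 9 above 0, 8 below and a median of 0.01. The most abundant 3 were Adcy5, the adenylyl cyclase of MSNs, at -0.14, Pde10a, which breaks down cyclic nucleotides, at -0.15, and Pde1b at -0.08 (log2 fold changes). All 3 are also among the shared MSN markers, which were lowest in TG1. Without TG1 the 17 genes ran from -0.06 to 0.15, with 10 above 0, 7 below and a median of 0.02. In 1 of the 17, Prkar1a, a regulatory subunit of protein kinase A, all TG values lay above all WT values, with a log2 fold change of 0.06 (SE 0.05). It is named because it was the 1 gene of that list without overlap. Over all genes tested, 10.1% did not overlap between the genotypes, counting both directions. Without TG1, 4 of the 17 had all TG values above all WT values, as had 2224 of the 17605 genes tested.

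The remaining members were compared with their own families. Eya2, Eya3 and Eya4 had log2 fold changes of -0.33 (SE 0.39), 0.04 and 0.01, and 0 were called. Eya3, at 1122 to 1255 normalized read counts, was the most abundant Eya gene in this tissue. Sfxn2, Sfxn3, Sfxn4 and Sfxn5 lay between -0.03 and 0.01, like Sfxn1 itself, and Sfxn3 and Sfxn5 were the more abundant sideroflexins, at 1468 and 560 normalized read counts per kilobase against 189 for Sfxn1. Slc35d1 had a log2 fold change of -0.03, and Slc35d2, at 9.16 to 21.5 normalized read counts, one of 0.37 (SE 0.32).

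The genes whose profile over the 6 libraries was most like that of Drd1, among 8722 genes with a mean of at least 500, were Arfrp1, Erich3, Myh7, Gpr83 and Acvr1c, with r between 0.987 and 0.998. A correlation above 0.9 with Drd1 was found for 234 of these genes. For the mean profile of the 7 members the closest were Dbp, Phactr1, Tmem158, Gpr6 and Mknk1, with r between 0.979 and 0.992, and 108 genes were above 0.9. Gpr6 is an indirect pathway marker. These values rank profiles over 6 libraries that share their scaling and are given as a description.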

How the data were processed

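Striatal RNA of 3 Shank3 TG and 3 WT mice was sequenced by the authors. Per the methods and the submitters' processing notes, reads were trimmed with Trimmomatic 0.35, aligned to GRCm38 with TopHat2 2.1.0, counted per gene with HTSeq and divided by DESeq2 size factors. The deposited values are thus a signal per gene, the normalized read count. The strand setting and the annotation release of the counting are not given in the sources used here. The smallest value above 0 of a library is 1 read, and division by it brought 100% of values to within 0.01 of a whole number of reads. Recovered totals were 36647626, 27858248 and 32342629 in TG1, TG2 and TG3 and 27689589, 33575536 and 32087895 in WT1, WT2 and WT3. Exact permutation P values rest on the values of these mice alone. The SEs, intervals and P values of limma use a moderated spread, drawn from the gene's own spread between mice and that of other genes. They can thus be narrower or wider than the gene's own spread would give. Counting SDs cover counting error only.

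Differences were tested with limma 3.58.1 (R 4.3.3, mean-variance trend), with log2(value + 1) as the response. A mean of 10 or more over the libraries was required, which 17605 genes met, and P values were adjusted over all of them after Benjamini and Hochberg (threshold 0.05). A fold change on this scale understates that of genes with low values. Symbols came from GENCODE M21 and matched 45143 of 46078 identifiers. Single values were compared with two-sided exact permutation tests over the 6 libraries (scipy 1.17.1), and correlations over all 720 orders. Alternatives were library totals, TMM factors, equal shared MSN markers, pseudocounts of 0.5 and 5, no filter, a mean of at least 50, each library left out, a replicate block, a choroid plexus covariate, and limma-voom, edgeR 4.0.16 and DESeq2 1.42.0 on the recovered reads. DESeq2 with a prior and a null fitted to the central 75% of statistics, the relations with comparators, other ratios and the recount of lists without TG1 were added after seeing the data.

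The members and the 23 gene lists were chosen with earlier results of these data known. Named were all members, Shank3, every gene of the lineage, indirect pathway and family lists, the most abundant genes of other lists and the 5 genes closest to Drd1 and to the mean profile. Genes named outside this rule were chosen after their values were seen (Oprk1, Tacr1 and Prkar1a). Of 132 list genes 131 were matched. Of the microglia markers 1 is not reported here. Between libraries r was 0.992 to 0.995 and squared differences exceeded counting error 4.96 to 13.5 times, so no library was a copy. In simulated data for this comparison (17605 genes, 200 changed), limma's calls numbered 125, with 5 false ones. They took in 88.4% of changes of 1, 72% of 0.5 and 8.93% of 0.25 on the log2 scale. Recovery at the spread of single members, such as the SD of 0.24 within genotypes of Drd1, was not tested.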

Additional observations from a re-analysis of the deposited data

How the results depend on the processing

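In each of the alternatives 0 of the 7 members were called, while the number of genes called over all genes tested went from 1 to 17 with equal shared MSN markers (16 higher and 1 lower in TG), 5 without a filter, 7 with DESeq2, 15 with DESeq2 with a prior and 2 without TG2 or without TG3. Of 214 values recomputed 10 turned sign, 8 log2 fold changes of members and 2 values of the Drd1 to Drd2 ratio, whose log2 difference was 0.0278 without TG1 and 0.00277 without WT1. Drd1 was 0.0279 with the choroid plexus covariate, and -0.296 (without TG2) to 0.0252 (without TG1) with 1 library left out. Tac1 was -0.0447 (without TG2) to 0.144. Pdyn was -0.0409 with the choroid plexus covariate, -0.111 (without TG2) to 0.1196 (without TG3) with 1 library left out, and -0.00129 without WT3. Sfxn1 was 0.0840 with equal shared MSN markers and -0.0315 to 0.00291 (without TG2) with 1 library left out. The signs of Chrm4, Eya1 and Slc35d3 held in all 19 alternatives, at -0.22 to -0.02, -0.28 to -0.09 and -0.34 to -0.14, and the adjusted P value of Slc35d3 ranged from 0.298 to 1.00. Positive pairs of members fell from 16 to 8 of 21 with equal shared MSN markers. Relations with comparators past the adjusted exact permutation test went from 2 to 0 with library totals and to 0 with Spearman's rho. The causes were not tested.

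Same-numbered TG and WT libraries deviated from their group means with r = 0.05, 0.02 and 0.09, so the numbers are not treated as a pairing. With the replicate block 0 members and 1 gene overall were called. At this sample size the simulation recovered few changes of 0.25 on the log2 scale, which limits what can be said of shifts the size of those of Slc35d3 and Eya1.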

Other observations

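Markers of the striosome and matrix compartments of the striatum gave no call. Of 4 striosome markers, 2 were above 0 and 2 below (median log2 fold change 0.00), with Kremen1 at -0.04, Lypd1 at 0.12 and Bach2 at -0.08. Of 3 matrix markers, 1 was above 0 and 2 were below (median -0.05), with Calb1 at -0.06, Epha4 at -0.05 and Sv2b at 0.11. Of 7 interneuron markers 0 were called, with a median of -0.05, and Sst, the somatostatin precursor, had a log2 fold change of -0.02, Nos1 -0.05 and Npy -0.09.

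Among other cell types, 5 of 5 microglia markers reported were below 0 (median log2 fold change -0.10), with and without TG1. In limma's test 0 of them were called, 2 had an unadjusted P value below 0.05, and the other tests called 0. In Cx3cr1, Tmem119 and C1qa, with log2 fold changes of -0.12, -0.10 and -0.17, all TG values lay below all WT values, which was so for 5.05% of all genes tested; these 3 are named because they did not overlap. The 6 astrocyte markers had a median of -0.01, the 6 oligodendrocyte markers -0.02 and the 5 endothelial markers 0.00. Of 9 choroid plexus markers tested 9 were above 0 (median 1.36), 5 of them at an unadjusted P value below 0.05, and 8 without TG1 (median 0.55). In limma's test 0 of the 9 were called, and in DESeq2 with a prior and an empirical null 2. Of 8 cortical markers 6 were above 0 (median 0.06), and of 4 thalamic markers 4 (median 0.15), or 2 without TG1.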
